A study of Danio rerio with 12 samples.

Results

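The DNA replication genes described here are the machinery that licenses, opens and copies chromosomal DNA, and their transcripts were counted in polyA RNA-seq libraries of 12 melanomas from zebrafish (Danio rerio). Genes were chosen by name alone: MCM, ORC, GINS, RFC, RPA, DNA polymerase alpha, delta and epsilon, primase, the licensing and firing factors, pcna, fen1, LIG1, the enzymes of nucleotide supply, tipin, TIMELESS, uhrf1, dnmt1 and msh6, with 1 further gene. The rule found 64 of the 27827 genes in the table. In 63 of them the name is that of a replication or replication-coupled gene. The remaining gene, cdc73, codes for a subunit of the Paf1 transcription elongation complex and was caught only because its name begins like that of the kinase gene cdc7.

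The study compared 6 melanomas of the genotype MiniCoopR-GFP with 6 of the genotype MiniCoopR-MyrRSK, called GFP and MyrRSK here. MiniCoopR is a transgenesis vector that returns mitfa, the master regulator of melanocytes, to fish that lack it, together with a gene of interest under the mitfa promoter, so both groups carry the vector and its mitfa. GFP is the control cargo, and MyrRSK is a version of RSK, the ribosomal S6 kinase that acts downstream of ERK. No treatment was applied. The sources used here do not give the host line, its other alleles, the age of the fish or whether each melanoma came from a different fish. The p-values below set the difference between the groups against the spread of samples within them. They treat the 12 samples as independent, which the sources used here do not settle.

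Before S phase, the origin recognition complex, CDC6 and CDT1 load the MCM2-7 ring onto DNA, a step called licensing that geminin blocks once S phase has begun. The kinase CDC7 and the factors CDC45 and GINS then turn the ring into the active helicase, and polymerases, the sliding clamp PCNA and its loader RFC copy the opened strands. Most of these genes are transcribed under E2F control as cells commit to S phase, so their messenger RNA is widely used as a readout of proliferation in tumours.

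Each library held 61750434 to 72257237 gene counts, and all 64 genes passed the filter on low counts that left 26866 genes for testing. GFP 1 and GFP 2 lay away from the other 10 libraries along the first principal component (18.2% of the variance), so results are given with and without them. Along the second (16.4%), GFP 5 and GFP 4 had the highest scores, 115 and 98.8, followed by GFP 3 at 53.9. GFP 4 and GFP 5 were each left out alone, not together. All 8 melanocyte markers were detected, mitfa, dct, tyrp1b, pmela, tyr and sox10 among them, and their summed CPM (counts scaled by TMM library size) ran from 1294 to 34517 in GFP and from 3855 to 16723 in MyrRSK melanomas. GFP 6 had the lowest sum. Markers of other cells were present too. The 7 epidermal markers summed to 1422 to 8246 CPM in GFP and 728 to 2738 in MyrRSK, with GFP 1 the highest, and the 5 erythrocyte markers to 84.5 to 4721 CPM in GFP and 136 to 1718 in MyrRSK, with GFP 1 again the highest. The 13 tested skeletal muscle markers summed to 5.35 to 16.8 CPM in GFP and 8.80 to 461 in MyrRSK, with MyrRSK 4 and MyrRSK 2 the highest. The 19 macrophage and neutrophil markers summed to 353 to 1416 CPM in GFP and 670 to 1790 in MyrRSK, and the 8 lymphocyte markers to 29.4 to 191 and 50.3 to 211 CPM. The 3 tested hepatocyte markers summed to 3.36 to 22.7 CPM in GFP and 8.19 to 175 in MyrRSK, with fabp10a at a mean of 0.26 CPM in both groups. Of all these markers pvalb2 had no count in 2 libraries, and ckmb, tnni2a.4, fgb, MFAP4 (2 of 13) and MFAP4 (3 of 13) had none in 1 library each. The part of these cells in the results below was not tested, and in bulk tissue fewer cells of a type and less RNA per cell cannot be told apart.

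No replication gene differed between the groups at the threshold. In edgeR's quasi-likelihood test with Benjamini-Hochberg adjustment over all 26866 genes, 0 of 64 were higher in MyrRSK at an adjusted p under 0.05 (0.29% of all tested genes were) and 0 were lower (0.115% of all). At an adjusted p under 0.1 edgeR called 0 higher (1.26% of all) and 0 lower (0.893% of all). DESeq2 called 0 in each direction at 0.05 too, against 2.91% of all genes higher and 2.83% lower, and so did the authors' deposited table, against 2.88% higher and 2.29% lower. At 0.1 DESeq2 had 4 of 64 higher (4.13% of all genes), cdt1, GINS4, orc6 and gins3, and 0 lower (4.4% of all). At the same threshold the authors' deposited table had 3 higher (4.14% of all), cdt1, GINS4 and orc6, and 0 lower (3.66% of all). With p left unadjusted and under 0.05, edgeR found 8 of 64 higher (7.18% of all genes) and 0 lower (8.33% of all), and DESeq2 10 higher (8.16% of all) and 0 lower (10.1% of all). In 0 of the 64 genes did all MyrRSK libraries lie above all GFP libraries (1.01% of all genes did), and in 0 did they all lie below (0.722% of all).

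The sign of the difference was nevertheless uneven. The log2 fold change, MyrRSK against GFP, was positive in 46 of 64 genes, while 44.9% of all tested genes had a positive value, and the median was 0.25 against -0.07 over all tested genes. The values ran from -0.49 for pola1 to 0.99 for dut. Without GFP 1 and GFP 2, 33 of 64 were positive (48.1% of all genes), 31 negative (51.9% of all) and the median was 0.03 against -0.03 over all genes. In that fit 0 passed the edgeR threshold in either direction (0.0845% of all genes higher, 0.0257% lower). An unadjusted p under 0.05 was found for 3 genes with a higher level (7.61% of all), cdt1, orc6 and GINS4. It was found for 1 with a lower level (8.46% of all), pola1. Most of the lean towards MyrRSK was thus lost without those 2 GFP libraries. They had the lowest replication means of all libraries, so leaving them out of GFP was bound to narrow the difference. Without GFP 4, the GFP library with the highest replication mean, 51 of 64 were positive. The median in that fit was 0.42, against -0.05 over all genes, and the positive share over all genes was not counted.

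**Figure D1:**
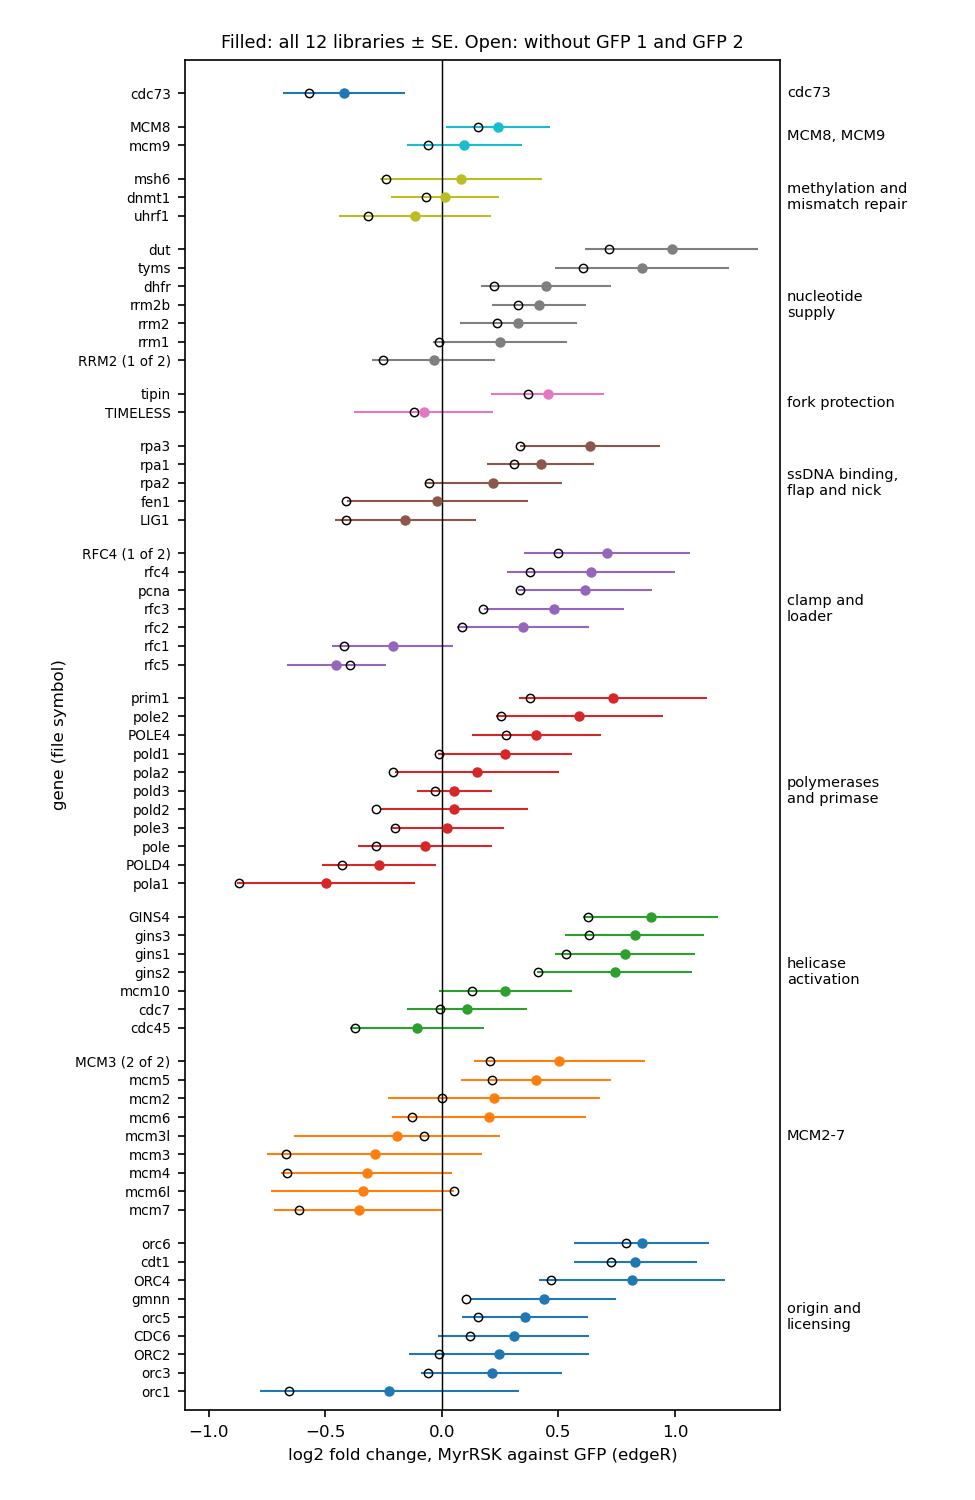
Log2 fold change, MyrRSK against GFP, of 63 of the 64 replication genes (horizontal axis, edgeR) by gene (vertical axis, file symbol). Filled points with bars are values from all 12 libraries ± SE, and open points are values without GFP 1 and GFP 2. Over all 64 genes, 46 values are positive with all libraries and 33 without GFP 1 and GFP 2.

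Origin recognition and licensing genes had positive values in 8 of 9 cases, with a median log2 fold change of 0.36 that was 0.12 without GFP 1 and GFP 2. The gene with the smallest p among all 64 was cdt1 (ENSDARG00000051854, chromosome 7, 56781782 to 56793875, Zv9), which codes for the loader that brings MCM rings to origins. It measured 7.83, 8.64, 13.5, 11.2, 10.5 and 6.27 CPM in GFP 1 to 6 and 23.2, 8.45, 16.8, 20.9, 19.1 and 14.6 CPM in MyrRSK 1 to 6. All MyrRSK libraries except MyrRSK 2 exceeded every GFP library, an arrangement whose share over all tested genes was not counted. The log2 fold change was 0.83 ± 0.26 (SE, n = 6 per group), with an edgeR adjusted p of 0.153 and a DESeq2 adjusted p of 0.0567, so the gene did not pass the threshold in either test. It was 0.73 when GFP 1 and GFP 2 were left out.

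orc6 (ENSDARG00000075682, chromosome 7, 44541817 to 44550988, Zv9), a subunit of the origin recognition complex, was chosen after its values were seen. It measured 8.29, 12.7, 13.5, 15.4, 13.5 and 6.16 CPM in GFP 1 to 6 and 29.6, 9.54, 20.8, 25.5, 19.8 and 20.6 CPM in MyrRSK 1 to 6. The arrangement was that of cdt1, with 5 MyrRSK libraries above every GFP library and MyrRSK 2 within the GFP range. How many of all tested genes had 5 such libraries was not counted. The log2 fold change of orc6 was 0.86 ± 0.29 (edgeR adjusted p 0.176) and 0.79 without GFP 1 and GFP 2. cdt1 overlaps aprt over 80 bases and orc6 overlaps vps35 over 166 bases, and the sources used here do not say whether counting used strand.

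orc1, another origin recognition subunit gene, had a GFP group in which 1 library stood alone. GFP melanomas ran from 10.7 to 156 CPM with a median of 28.9, and MyrRSK melanomas from 24.3 to 51.6 with a median of 43.9. GFP 5 alone held the value of 156, while the next highest GFP library had 40.3. The log2 fold change was -0.23 ± 0.55 (edgeR adjusted p 0.874), and without GFP 5 it was 0.69 (adjusted p 0.411). Among the other subunits, ORC4 had a value of 0.82 ± 0.40 (adjusted p 0.346), and orc5, ORC2 and orc3 had 0.36, 0.24 and 0.21. CDC6, the ATPase that works with CDT1, had 0.31 ± 0.32, and gmnn, which codes for the CDT1 inhibitor geminin, 0.44 ± 0.31. gmnn lies wholly within the annotated span of fam65b, so its counts are uncertain.

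The MCM2-7 helicase genes showed no common direction. The family has 7 main genes here because MCM3 is present as mcm3 and MCM3 (2 of 2), and 4 of the 7 had positive and 3 negative log2 fold changes, from -0.36 to 0.50. Their mean log2 CPM was 6.61 ± 0.85 in GFP and 6.81 ± 0.56 in MyrRSK melanomas (SD, n = 6).

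mcm2, which lies on the unplaced scaffold Zv9_NA237, ran from 34.6 to 193 CPM in GFP with a median of 114, and from 36.4 to 183 in MyrRSK with a median of 131. Its log2 fold change was 0.22 ± 0.46 (adjusted p 0.844). The groups covered almost the same range. mcm3 ran from 21.4 to 222 CPM in GFP with a median of 80.4, and from 32.1 to 128 in MyrRSK with a median of 81.3, at -0.29 ± 0.46 (adjusted p 0.799). MCM3 (2 of 2) ran from 47.4 to 157 CPM in GFP with a median of 88.3, and from 66.9 to 180 in MyrRSK with a median of 147, at 0.50 ± 0.37 (adjusted p 0.541). The 2 copies of MCM3 thus differed in sign, neither difference exceeded the spread, and the difference between the copies was not tested. mcm3 overlaps stmn4 over 10098 bases, so some of its counts may belong to either gene.

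mcm4 ran from 77.4 to 461 CPM in GFP with a median of 152, and from 123 to 201 in MyrRSK with a median of 167, at -0.32 ± 0.37 (adjusted p 0.710). The median was higher in MyrRSK and the mean lower: GFP 3 held 461 CPM, and without it the log2 fold change was 0.08. mcm5 ran from 51.3 to 151 CPM in GFP with a median of 76.4, and from 44.0 to 169 in MyrRSK with a median of 119, at 0.40 ± 0.32 (adjusted p 0.582). mcm6 ran from 31.7 to 236 CPM in GFP with a median of 123, and from 75.4 to 194 in MyrRSK with a median of 170, at 0.20 ± 0.42 (adjusted p 0.847). mcm6 turned to -0.13 without GFP 1 and GFP 2. mcm7 ran from 42.0 to 212 CPM in GFP with a median of 108, and from 37.8 to 137 in MyrRSK with a median of 90.8, at -0.36 ± 0.36 (adjusted p 0.675). In each of the 7 genes the ranges of the groups overlapped. Without GFP 1 and GFP 2, mcm3, mcm4 and mcm7 had -0.67, -0.66 and -0.61. In the same fit mcm2, MCM3 (2 of 2) and mcm5 had 0.0027, 0.21 and 0.22. The median of the 7 was 0.20 with all libraries and -0.13 without those 2.

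The remaining members of the family were low or stood outside the ring. mcm3l and mcm6l, further MCM3 and MCM6 relatives, had mean CPM of 0.399 and 1.56 in GFP and 0.348 and 1.23 in MyrRSK. MCM8, a helicase subunit of recombination repair, ran from 7.54 to 12.9 CPM in GFP with a median of 10.6, and from 8.44 to 17.4 in MyrRSK with a median of 11.8, at 0.24 ± 0.22 (adjusted p 0.644). Its partner mcm9 had 0.10 ± 0.25.

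The GINS genes, which code for the 4 subunits of the complex that joins CDC45 and the MCM ring in the active helicase, had values close to each other. All 4 log2 fold changes lay between 0.74 and 0.90, none passed the threshold, and gins1, gins2 and gins3 joined GINS4 in having GFP 1 as their lowest library. GINS4 (ENSDARG00000016044, chromosome 8, 54694451 to 54709562, Zv9) measured 4.97, 5.51, 11.4, 16.1, 6.68 and 9.23 CPM in GFP 1 to 6 and 17.8, 13.7, 17.4, 15.7, 13.8 and 21.9 CPM in MyrRSK 1 to 6. GFP 4 was the GFP library that reached the MyrRSK values. Its log2 fold change was 0.90 ± 0.29 with an edgeR adjusted p of 0.158, a DESeq2 adjusted p of 0.0599 and, in the authors' deposited table, an adjusted p of 0.0641.

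gins1 and gins3 were chosen after their values were seen. gins1 ran from 4.0 to 9.23 CPM in GFP with a median of 7.60, and from 7.65 to 20.6 in MyrRSK with a median of 11.1, at 0.79 ± 0.30 (adjusted p 0.226). gins3 ran from 3.29 to 9.28 CPM in GFP with a median of 6.24, and from 8.03 to 17.8 in MyrRSK with a median of 9.71, at 0.83 ± 0.30 (adjusted p 0.207). In both genes only the upper GFP libraries reached the lower MyrRSK ones. gins2 ran from 5.20 to 21.6 CPM in GFP with a median of 12.8, and from 15.6 to 29.6 in MyrRSK with a median of 19.9, at 0.74 ± 0.33 (adjusted p 0.306). The values for gins1, gins2, gins3 and GINS4 were 0.53, 0.41, 0.63 and 0.62 without GFP 1 and GFP 2, a median of 0.58.

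The mean log2 CPM of the 4 GINS genes was 2.97 ± 0.56 in GFP and 3.84 ± 0.36 in MyrRSK melanomas. As a difference within a library, the GINS mean minus the mean of the 7 MCM genes ran from -4.15 to -2.98 in GFP and from -3.54 to -2.21 in MyrRSK, so the ranges overlapped. The other firing factors had small values: cdc45 had -0.11 ± 0.29, cdc7 0.11 ± 0.26 and mcm10, which helps the helicase to open DNA, 0.27 ± 0.28. cdc45 shares 4922 bases with dhx37.

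**Figure D2:**
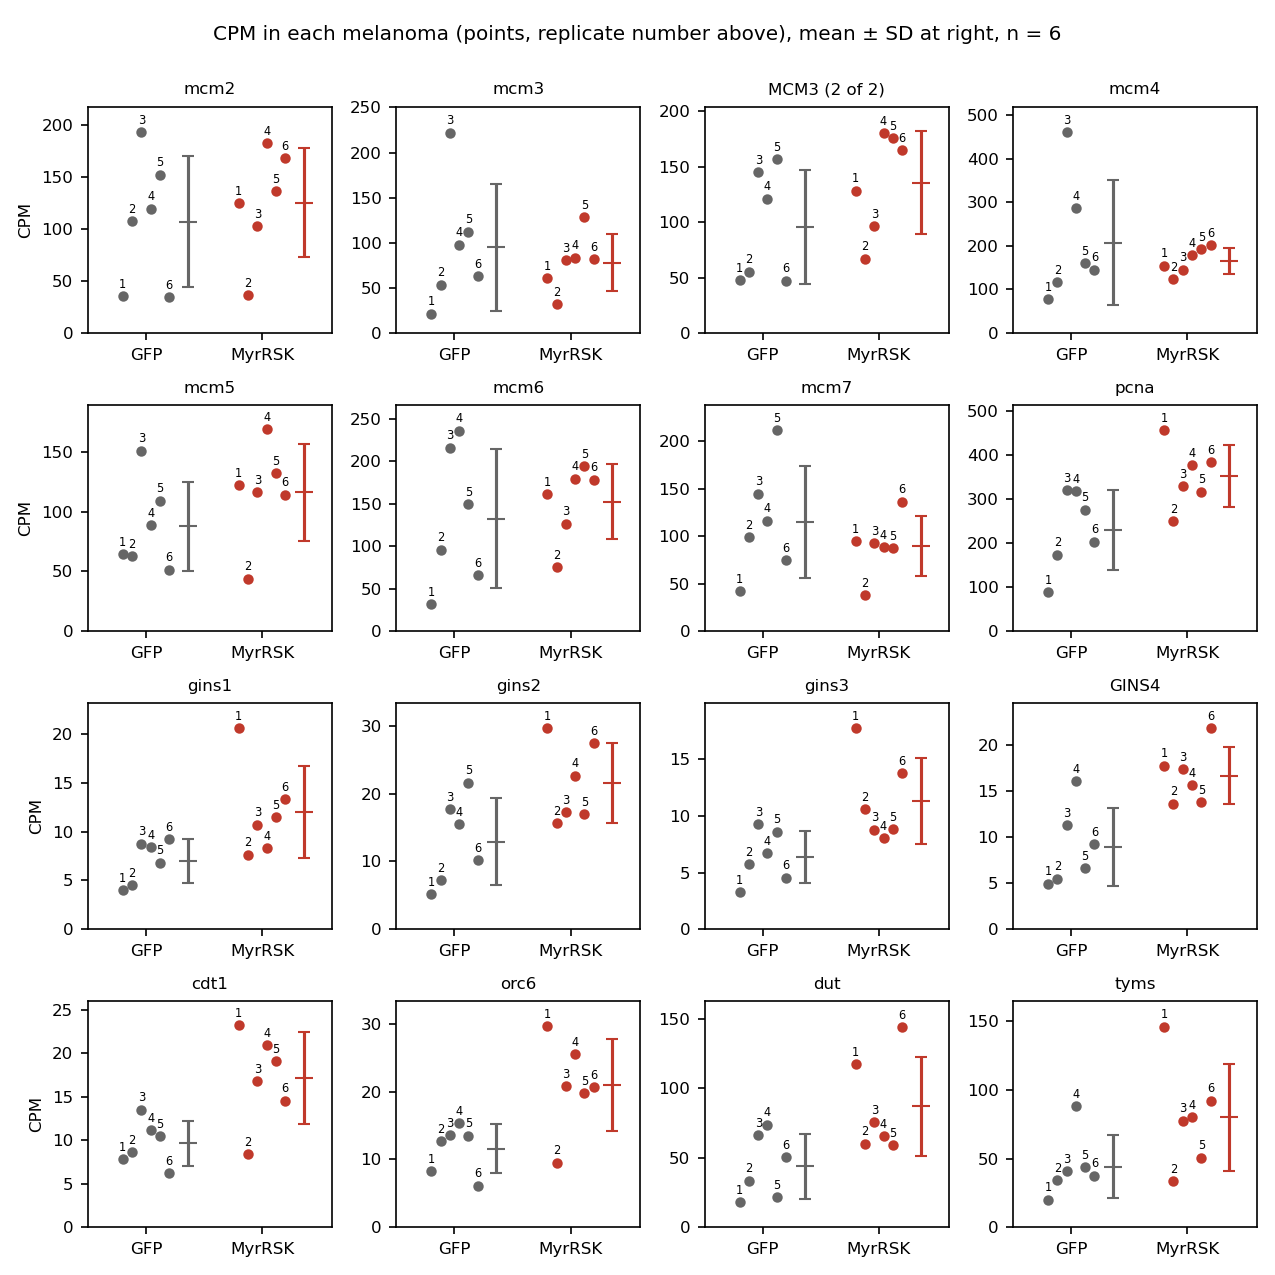
CPM (vertical axes, from 0) in each GFP and MyrRSK melanoma for selected replication genes, 1 panel a gene. Points are libraries with their replicate number, and the mean ± SD of 6 libraries stands to the right of each group. In cdt1 and orc6 5 MyrRSK libraries lie above every GFP library, an arrangement whose share over all tested genes was not counted.

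Genes of the replicative polymerases and primase divided into 8 positive and 3 negative values with a median of 0.05, which was -0.20 without GFP 1 and GFP 2. prim1, the catalytic primase subunit, had the smallest p of this role. It ran from 11.5 to 66.9 CPM in GFP with a median of 36.2, and from 37.3 to 104 in MyrRSK with a median of 43.2, at 0.73 ± 0.40 (adjusted p 0.409). Its partner subunit primase 2 was not found by the name rule; zgc:110727, whose listed human ortholog is PRIM2, had 0.64 ± 0.39 (adjusted p 0.451).

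pola1, the catalytic subunit of polymerase alpha, which extends the primer, went the other way. It ran from 20.3 to 134 CPM in GFP with a median of 56.1, and from 39.4 to 61.8 in MyrRSK with a median of 50.3, at -0.49 ± 0.38 (adjusted p 0.566). GFP 1 held the lowest and GFP 3 the highest value, with all MyrRSK libraries between them. Without GFP 1 and GFP 2 its log2 fold change was -0.87 at an unadjusted edgeR p of 0.00947. In that fit pola1 was the only gene of the 64 that was lower at an unadjusted p under 0.05, against 8.46% of all genes. Of the catalytic subunits of the polymerases that extend the strands, pold1 had 0.27 and pole -0.07, and the accessory subunit genes ran from -0.27 for POLD4 to 0.59 for pole2. Among them pold2, at 0.05, lies wholly within the annotated span of sf3a1, so its counts are uncertain.

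The sliding clamp gene pcna (ENSDARG00000054155, chromosome 10, 42187909 to 42192762, Zv9) measured 88.6, 173, 321, 318, 276 and 203 CPM in GFP 1 to 6. It measured 457, 250, 329, 377, 317 and 383 CPM in MyrRSK 1 to 6. MyrRSK 1, 3, 4 and 6 exceeded every GFP library, and the share of all tested genes with as many such libraries was not counted. The log2 fold change was 0.61 ± 0.29 (edgeR adjusted p 0.323) and 0.33 without GFP 1 and GFP 2. Among the subunits of the clamp loader, RFC4 (1 of 2), rfc4, rfc3 and rfc2 had values of 0.71, 0.64, 0.48 and 0.35, and rfc1 and rfc5 had -0.21 and -0.45. RFC4 (1 of 2) lies wholly within the span of sos1, whose counts are far higher, so its counts are uncertain.

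Among genes that coat single-stranded DNA or join Okazaki fragments, rpa3, the smallest RPA subunit, ran from 9.16 to 36.5 CPM in GFP with a median of 23.2. In MyrRSK it ran from 24.9 to 45.8 with a median of 33.2, at 0.63 ± 0.30 (adjusted p 0.329). rpa1, the large subunit, ran from 48.6 to 117 CPM in GFP with a median of 66.9, and from 82.6 to 133 in MyrRSK with a median of 96.9, at 0.42 ± 0.23 (adjusted p 0.397). In both genes the medians were higher in MyrRSK while the ranges overlapped. The middle subunit gene rpa2 had 0.22 ± 0.29. The flap nuclease gene fen1 had -0.02 ± 0.39 and the ligase gene LIG1 -0.16 ± 0.30.

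Of the fork protection pair, tipin ran from 11.4 to 22.3 CPM in GFP with a median of 14.9, and from 12.9 to 33.7 in MyrRSK with a median of 19.7, at 0.45 ± 0.24 (adjusted p 0.392). TIMELESS ran from 38.3 to 111 CPM in GFP with a median of 69.8, and from 42.6 to 131 in MyrRSK with a median of 61.7, at -0.08 ± 0.30 (adjusted p 0.918). The proteins bind each other, while the values of the genes differed in sign without passing the threshold. TIMELESS lies wholly within the annotated span of cpne5, so its counts are uncertain. tipin overlaps dis3l over 729 of its 4634 bases, so some of its counts may belong to either gene.

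Nucleotide supply genes had positive values in 6 of 7 cases with a median of 0.42 that was 0.24 without GFP 1 and GFP 2. The largest log2 fold change of all 64 genes was that of dut (ENSDARG00000086768, chromosome 18, 4729030 to 4735630, Zv9), the dUTPase that keeps uracil out of DNA. It measured 18.0, 33.5, 66.1, 73.8, 21.6 and 50.6 CPM in GFP 1 to 6 and 117, 60.1, 75.6, 65.6, 59.3 and 144 CPM in MyrRSK 1 to 6. GFP 3 and GFP 4 overlapped with the MyrRSK libraries, of which 3 lay above every GFP library. The share of all tested genes with as many such libraries was not counted. The log2 fold change of dut was 0.99 ± 0.37 (edgeR adjusted p 0.225) and 0.72 without GFP 1 and GFP 2.

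tyms, thymidylate synthase, was chosen after its values were seen. It ran from 20.1 to 88.2 CPM in GFP with a median of 39.3, and from 33.6 to 146 in MyrRSK with a median of 79.1, at 0.86 ± 0.37 (adjusted p 0.292). GFP 4 held the value of 88.2, above the MyrRSK median. rrm2, the S phase subunit of ribonucleotide reductase, ran from 76.8 to 169 CPM in GFP with a median of 107, and from 103 to 229 in MyrRSK with a median of 117, at 0.33 ± 0.25 (adjusted p 0.559). The other reductase genes rrm2b, rrm1 and RRM2 (1 of 2) had 0.42, 0.25 and -0.04, and dhfr, which regenerates the folate that thymidylate synthase uses, 0.45.

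Other genes act behind the fork. dnmt1, the maintenance methyltransferase, ran from 47.8 to 113 CPM in GFP with a median of 95.6, and from 54.5 to 97.0 in MyrRSK with a median of 93.7, at 0.01 ± 0.23 (adjusted p 0.983). The mismatch repair gene msh6 had 0.08 ± 0.35, and uhrf1, which brings DNMT1 to newly copied DNA, -0.12 ± 0.33.

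A second gene of the table, FP360035.1, has human UHRF1 as its listed ortholog and lies elsewhere on chromosome 22. Its counts and those of uhrf1 differed by 1 to 12 in the 12 libraries, where the counts themselves ran from 2736 to 10123. That is far below sampling noise, so the 2 entries cannot be taken as 2 separate measurements, and the cause was not tested.

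The lean of the family towards MyrRSK went together with which libraries were low. GFP 1 was the lowest of the 12 libraries for 43 of 64 genes, against 12.1% of all tested genes, and GFP 1 and GFP 2 were the lowest 2 for 23 of 64, against 4.71% of all. MyrRSK 1 was the highest library for 20 of 64 (7.09% of all genes), GFP 4 for 14 (11.8%) and MyrRSK 6 for 11 (6.44%). Leaving out cdc73, the number of genes above their own median over the 12 libraries was 4 of 63 in GFP 1 and 9 of 63 in both GFP 2 and GFP 6, against 45 in GFP 3, 49 in GFP 4 and 30 in GFP 5. In MyrRSK 1 to 6 it was 55, 13, 30, 41, 36 and 57. Replication genes were thus low together in 3 GFP libraries and in MyrRSK 2.

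The mean log2 CPM over the 64 genes was 4.61 ± 0.53 in GFP and 4.94 ± 0.30 in MyrRSK melanomas (SD, n = 6). The groups differed by 0.33 ± 0.25 (SE). The library means were 3.82, 4.31, 5.05, 5.22, 4.91 and 4.37 in GFP 1 to 6 and 5.32, 4.47, 4.85, 4.92, 4.87 and 5.22 in MyrRSK 1 to 6. GFP 3, GFP 4 and GFP 5 lay within the MyrRSK range, and GFP 1, GFP 2 and GFP 6 below it. Without GFP 1 the difference was 0.17, and without GFP 1 and GFP 2 it was 0.06 ± 0.22. The low libraries GFP 1, GFP 2 and GFP 6 also differed from the other GFP libraries in markers of other cells. Their macrophage and neutrophil marker sums were 1416, 1245 and 880 CPM, against 422, 391 and 353 in GFP 3, GFP 4 and GFP 5. Their lymphocyte sums were 170, 191 and 171 CPM against 56.2, 29.4 and 34.2, and their epidermal sums 8246, 3240 and 3068 against 1752, 1422 and 1992. All 3 sums were thus higher in each of the low libraries than in GFP 3, GFP 4 and GFP 5. The melanocyte sums did not divide them in that way, at 23009, 20419 and 1294 CPM against 6331, 12942 and 34517. Neither did the erythrocyte sums, at 4721, 1145 and 301 CPM against 84.5, 724 and 156, nor the skeletal muscle and hepatocyte sums. Outside the GFP group, MyrRSK 3 had the highest macrophage and neutrophil sum (1790 CPM) and lymphocyte sum (211 CPM) of the 12 libraries. Its replication mean of 4.85 was not among the low ones. MyrRSK 2, with a replication mean of 4.47, had the next highest macrophage and neutrophil sum, 1691 CPM. Its epidermal sum of 2738 CPM was the highest of the MyrRSK group, and its lymphocyte sum was 102 CPM. The part of these cells in the replication values was not tested.

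**Figure D3:**
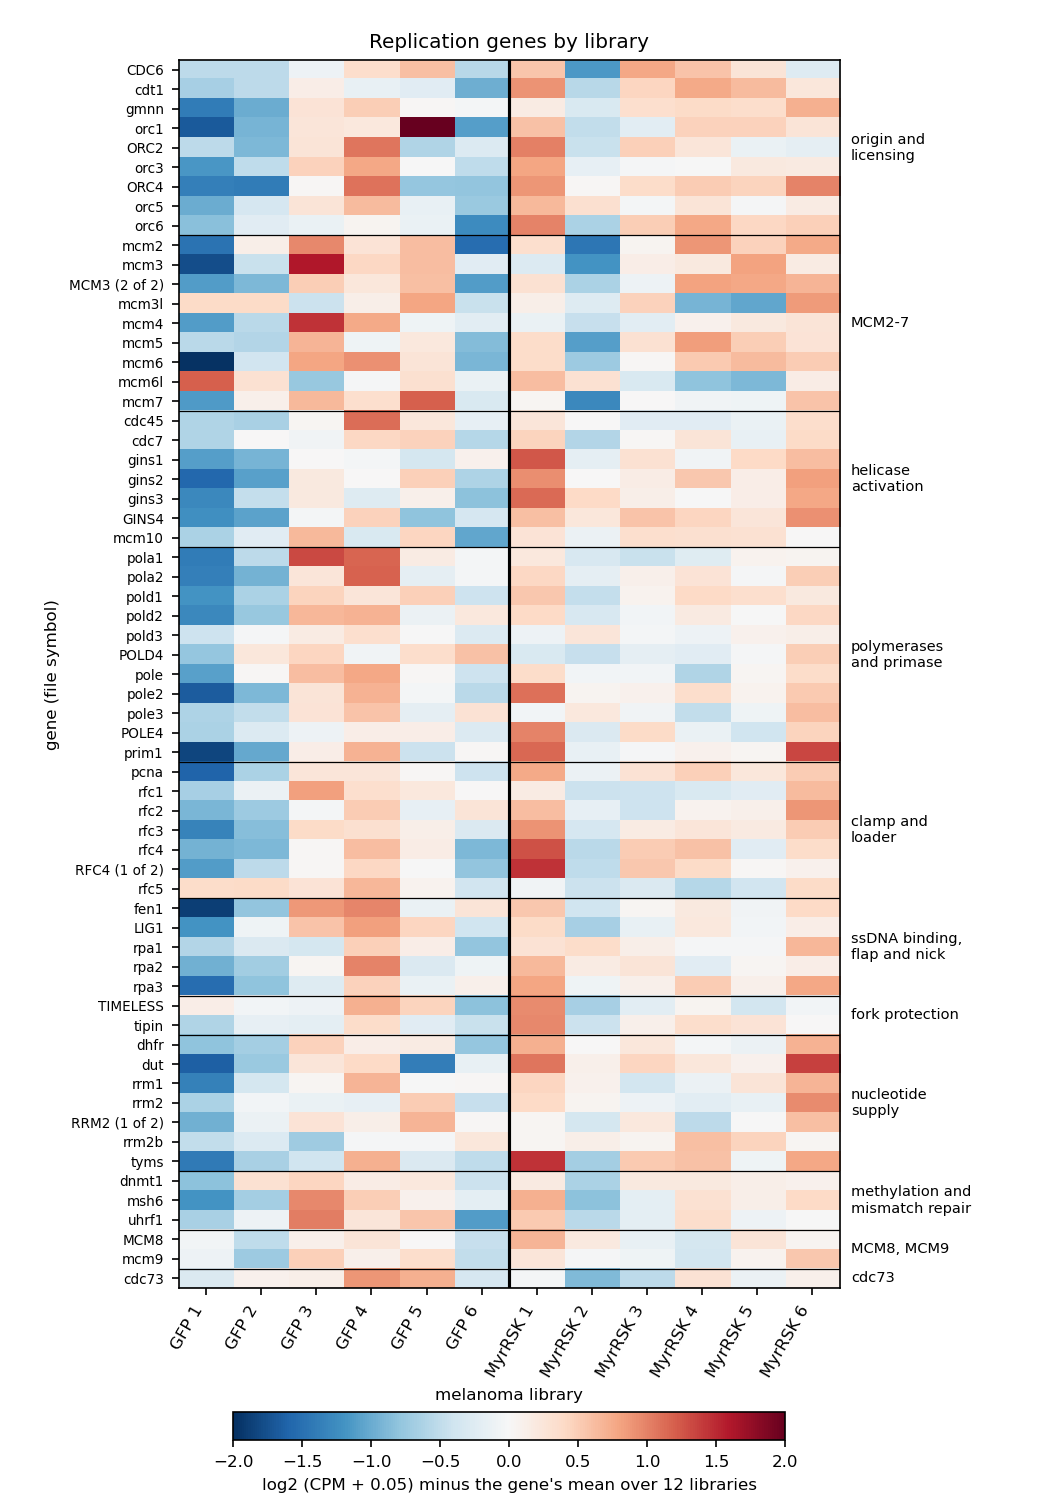
Heat map of 63 of the 64 replication genes (vertical axis, file symbol) in the 12 melanoma libraries (horizontal axis), where colour gives log2 (CPM + 0.05) minus the gene's own mean over the libraries. GFP 1, the lowest library for 43 of 64 genes, GFP 2, GFP 6 and MyrRSK 2 show low values across most genes.

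GFP melanomas also varied more among themselves. The coefficient of variation of CPM (SD over mean) was larger in GFP than in MyrRSK for 51 of 63 replication genes, 81.0%, against 67.9% of all tested genes. Its median over the replication genes was 42.7% in GFP and 27.1% in MyrRSK, and over all tested genes 45.0% and 34.7%. The GFP median over the replication genes was 33.6% without GFP 1 and GFP 2, and that over all tested genes 40.5%. No test of the difference in spread was made.

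Other S phase genes that the name rule does not cover were read from the same fit. Of 39 partners at the fork, such as histone chaperones, checkpoint mediators and topoisomerases, edgeR called 0 higher and 0 lower and DESeq2 likewise 0 in each direction, and the unadjusted edgeR p was under 0.05 for 5 with positive and 1 with negative values. Over all tested genes those unadjusted shares were 7.18% and 8.33%. At an adjusted p under 0.05 the shares over all genes, for this list and those below, were 0.29% higher and 0.115% lower in edgeR. In DESeq2 they were 2.91% and 2.83%. Of the 39, 23 were positive (44.9% of all genes) and 16 negative (55.1% of all), with a median of 0.17 that was 0.07 without GFP 1 and GFP 2. The 2 named for their mean CPM, which is not scaled for gene length, were nasp, a histone chaperone, at -0.98 ± 0.69 (adjusted p 0.523), and TK1 (2 of 2), thymidine kinase, at 0.19 ± 0.26 (adjusted p 0.755). The SD of nasp in GFP, 298 CPM, exceeded its mean of 199.

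Of 36 tested genes of E2F and cyclin control, edgeR called 0 higher and 0 lower, with 2 positive (7.18% of all genes) and 0 negative values (8.33% of all) at an unadjusted p under 0.05, and DESeq2 called 1 higher (2.91% of all). That gene was E2F2, an activating E2F factor, chosen after its values were seen. It measured 5.55 ± 0.741 CPM in GFP and 9.70 ± 1.58 in MyrRSK (SD, n = 6), at 0.81 ± 0.20 (edgeR adjusted p 0.082, DESeq2 adjusted p 0.000213). Its value was 0.87 without GFP 1 and GFP 2. All 6 MyrRSK libraries lay above every GFP library for E2F2, the 1 gene of the 36 of which this held, and for 1.01% of all tested genes. mycn and ccnd2a, named by the same rule, had -0.45 ± 0.39 and 0.25 ± 0.24 (adjusted p 0.614 and 0.651). The list as a whole had 24 positive and 12 negative values with a median of 0.13, and of 0.10 without GFP 1 and GFP 2.

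Mitosis genes, which peak later in the cell cycle, had more negative than positive values, as did all tested genes. Of 56, 19 were positive and 37 negative, where 55.1% of all genes were negative. Their median was -0.17, against -0.07 over all genes, and -0.20 against -0.03 without GFP 1 and GFP 2. edgeR called 0 in each direction, with 3 positive (7.18% of all) and 4 negative values (8.33% of all) at an unadjusted p under 0.05, and DESeq2 called 1 lower (2.83% of all). That gene, KIF20A, a kinesin of cytokinesis chosen after its values were seen, measured 47.3 ± 17.2 CPM in GFP and 15.9 ± 7.14 in MyrRSK, at -1.57 ± 0.36 (edgeR adjusted p 0.0694, DESeq2 adjusted p 0.00184). MKI67, the Ki-67 proliferation antigen, had -0.45 ± 0.31 (adjusted p 0.518), and tacc3, a spindle protein, -0.50 ± 0.27 (adjusted p 0.400).

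Replication and mitosis genes stood in a different relation to each other in 2 melanomas. The replication mean minus the mitosis mean, on the log2 CPM scale, was 0.71 in MyrRSK 4 and 0.42 in MyrRSK 5, and ran from -0.78 to 0.01 in the other 10 libraries. The mitosis mean was lowest in these 2 melanomas, at 4.22 and 4.45, against 4.60 to 5.57 elsewhere, while their replication means of 4.92 and 4.87 were near the MyrRSK mean. MyrRSK 4 also had the highest skeletal muscle marker sum, 461 CPM, and MyrRSK 5 had 32.5. MyrRSK 2 had the next highest muscle sum, 287 CPM, and a replication minus mitosis value of -0.36. MyrRSK 1 and MyrRSK 6, at 52.9 and 36.4 CPM, also exceeded MyrRSK 5. The part of muscle tissue was not tested.

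**Figure D4:**
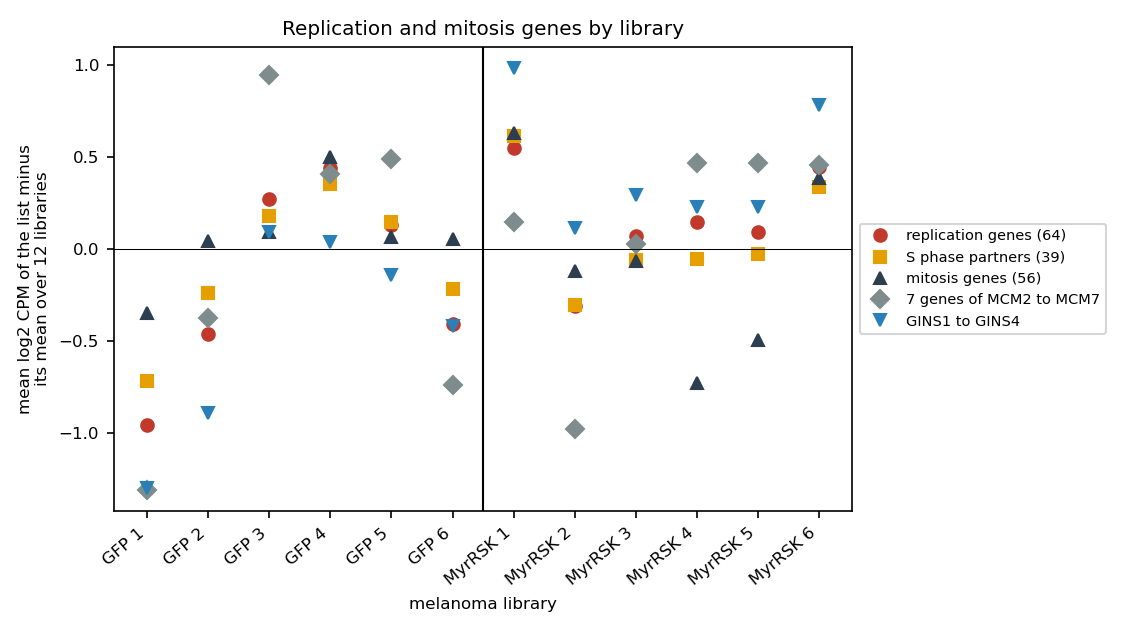
Mean log2 CPM of the replication and mitosis gene lists in each library, as the difference from the list's own mean over the 12 libraries (vertical axis), by melanoma library (horizontal axis). The replication and mitosis lists part in MyrRSK 4 and MyrRSK 5, where mitosis genes are lowest and replication genes are near their mean.

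Homologous recombination and Fanconi genes, which restart or repair stalled forks, had 24 positive and 17 negative values with a median of 0.01 that was -0.10 without GFP 1 and GFP 2. edgeR called 0 of 41 in each direction, with 4 positive (7.18% of all genes) and 0 negative values (8.33% of all) at an unadjusted p under 0.05, and DESeq2 called 3 higher (2.91% of all). Those 3, chosen after their values were seen, were FANCA, fancb and fancf, all of the Fanconi core complex, at 0.91 ± 0.24, 0.91 ± 0.26 and 1.0 ± 0.33 with edgeR adjusted p-values of 0.0962, 0.120 and 0.161. In each of them 5 MyrRSK libraries exceeded the highest GFP library, and how many of all tested genes did so was not counted. The list also holds fancc, fance, fancg, fancl and fancm of that complex, which neither test called. Of the genes named by mean CPM, atr, the kinase that senses stalled forks, had 0.25 ± 0.61 (adjusted p 0.874) and fancd2 0.26 ± 0.21 (adjusted p 0.582).

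Among the replication genes the fold change varied with the length of the annotated gene. Across 63 genes, leaving out cdc73, the Spearman correlation of log2 fold change and span from start to end in Zv9, introns included, was -0.48, and it was -0.44 without GFP 1 and GFP 2. Over 23837 tested protein-coding genes it was -0.07 and -0.09. These are correlations across genes measured in the same libraries, genes are not independent replicates, and no test was made.

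The 31 shorter genes, 1.88 to 12.1 kb, had 27 positive values and a median of 0.44, and the 32 longer genes, 12.1 to 91.7 kb, had 19 positive values and a median of 0.10. Without GFP 1 and GFP 2 the medians were 0.22 and -0.06. gins3, dut, rpa3, pcna and tyms are among the shorter ones, as is POLD4 at -0.27. The longest found by the name rule is pola1, at 91.7 kb. zgc:110727, the PRIM2 ortholog outside the rule and these counts, spans 124 kb and had 0.64 ± 0.39. Of the 8 genes higher at an unadjusted p under 0.05 (7.18% of all genes, whatever their span), 6 are shorter ones. The other 2, GINS4 at 15.1 kb and gins2 at 18.5 kb, are among the longer. Over all tested genes, whatever their span, 44.9% of values were positive, and shares by span were not counted. The median log2 fold change was 0.02 over the 5960 tested protein-coding genes with the shortest spans and -0.10 over the 5960 with the longest. The libraries also differed in this respect over all genes. The median deviation in log2 CPM of the 5960 protein-coding genes with the shortest spans minus that of the 5960 with the longest ran from -0.10 to 0.05 in GFP and from 0.02 to 0.16 in MyrRSK melanomas. The part of that difference between libraries in the replication values was not tested.

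**Figure D5:**
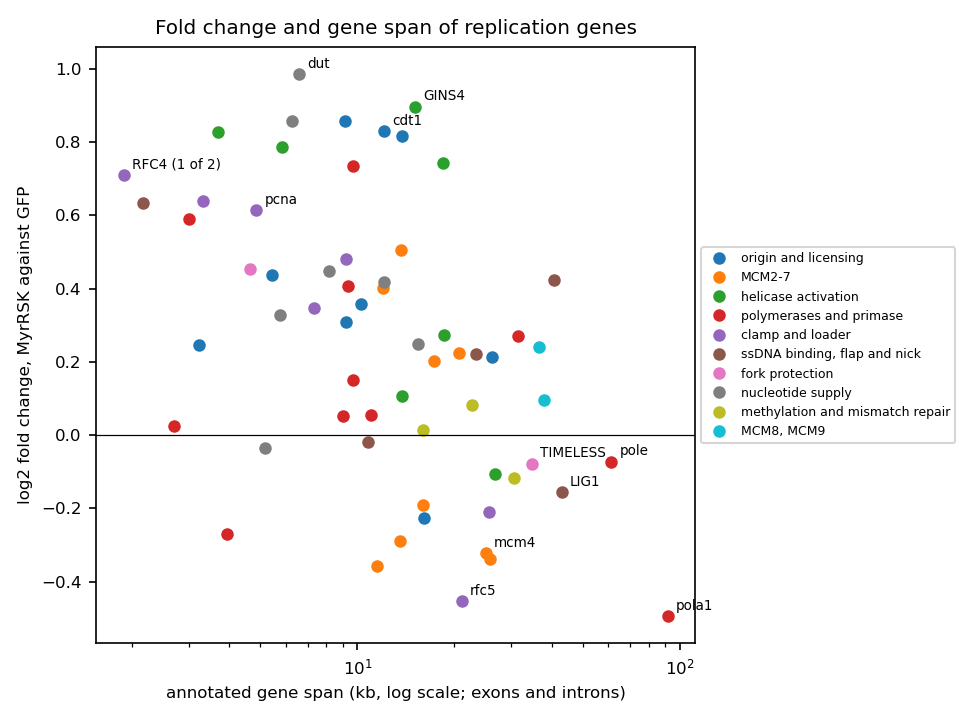
Log2 fold change, MyrRSK against GFP (vertical axis), against annotated gene span in kb, introns included (horizontal axis, log scale), for 62 of 63 replication genes coloured by role. Over all 63, positive values are found for 27 of the 31 shorter and 19 of the 32 longer genes, and the longest, pola1, has the lowest value. Over all tested genes, whatever their span, 44.9% of values are positive.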

How the data were processed

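PolyA RNA from 12 zebrafish melanomas, 6 GFP and 6 MyrRSK by their labels, was sequenced, and 1 table of 27827 genes was analysed. Per the submitters' processing notes, the build was Zv9 and the tools included STAR 2.6.1d, HTSeq 0.6.0 and DESeq2. The sources used here give neither their order and settings nor the annotation or the use of strand. The raw read counts per Ensembl gene are as deposited by the authors and were not normalized. The deposited signal columns are the authors' counts divided by a size factor per library. The log2 fold changes with their errors, the Wald score and the p-values in the table are the authors' own, per the file headers. Of these, only the log2 fold changes and adjusted p-values enter the results given here. The deposited mean normalized count served for the filter at 100. The smallest mean normalized count in the table is 5.08, so genes below it were not analysed here.

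The quasi-likelihood test of edgeR 4.0.16 (R 4.3.3) was run on the counts after filterByExpr and TMM scaling, with a robust fit and no term but group. P-values were adjusted by Benjamini-Hochberg over 26866 genes, and standard errors were derived from the log2 fold change and the F statistic. CPM uses TMM-scaled library sizes, log2 CPM a prior count of 1. The procedure was tested on simulated data. Among 66 pairs of libraries the smallest chi-square per degree of freedom was 180, so no library was taken for a copy of another. At these depths counting error matters only for low genes, and precision rests on the spread between melanomas.

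The genes, lists and tests were chosen with earlier results of these data known. Values by library were to be given for the main MCM2-7 genes, pcna and, in each role, the genes past the threshold or else the gene with the smallest p and the gene with the highest mean CPM. The text prints the values of all 12 libraries only for cdt1, orc6, GINS4, pcna and dut, which all had positive log2 fold changes. Other replication genes of this rule that are reported have the range and median of each group instead. In each related list up to 3 genes past the threshold, or else the 2 with the highest mean CPM, were named. For a gene outside this rule the text says that its values had been seen. Symbols are those of the table, and 54 of the 64 IDs also had a current symbol in a table of names. A gene of the rule is counted in the totals but not reported here by itself or drawn. Promoter and protein sequences were not analysed here. Alternatives were DESeq2 1.42.0, median-ratio scaling, no filter or a mean normalized count of at least 100, other prior counts, the replicate number as a term, each library left out, and GFP 1 and GFP 2 left out together. Figures were drawn with matplotlib 3.10.9.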

Additional observations from a re-analysis of the deposited data

Results flagged for a closer look

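In 5 of 54 groups of 6 values tested, the highest or lowest library lay apart from the other 5 by more of the group's range than Dixon's test allows at the 95% level. For independent groups of normally distributed values, chance flags about 1 in 20, or 2.7 of 54. The groups here come from the same libraries and nearly all are on the CPM scale, so 5 against 2.7 is not a test of chance. dnmt1 was lowest in MyrRSK 2 at 54.5 CPM, with the other 5 MyrRSK libraries at 89.4 to 97.0. TIMELESS was highest in MyrRSK 1 at 131 CPM, with the others at 42.6 to 70.6. tipin and tyms were both highest in GFP 4, at 22.3 CPM against 11.4 to 15.4 and at 88.2 CPM against 20.1 to 44.0 in the other GFP libraries. orc1 was highest in GFP 5 at 156 CPM, with the others at 10.7 to 40.3. The causes were not tested.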

How the results depend on the processing

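At an adjusted p under 0.05, 0 replication genes passed in each direction under every alternative run, without cdc73 included. In the edgeR fit of the results above it was also 0 under 0.1. That threshold was not counted in the other edgeR fits. The smallest adjusted p of a named gene in those was 0.0682, without GFP 4. DESeq2 under 0.1, added after seeing the data, had 4 higher (cdt1, GINS4, orc6 and gins3) and 0 lower. Of 468 alternative values of 26 named genes, 0 passed 0.05; the smallest adjusted p was 0.0567 (cdt1, DESeq2). The replication genes higher at an unadjusted p under 0.05, 8 with all libraries, numbered 20 without GFP 4, 13 without MyrRSK 2, 5 without MyrRSK 1 or MyrRSK 6 and 3 without GFP 1 and GFP 2. The share over all tested genes was 7.18% with all libraries and 7.61% without GFP 1 and GFP 2. It was not counted with 1 library left out, so whether those changes are particular to replication genes was not tested. Over all genes, 78 were higher and 31 lower at an adjusted p under 0.05. These counts were 798 and 775 by DESeq2, 23 and 7 without GFP 1 and GFP 2, and 77 lower with a mean count of at least 100. They ran from 1 to 104 and from 0 to 84 with 1 library left out. DESeq2 called 1 E2F and cyclin gene higher, 1 mitosis gene lower and 3 recombination and Fanconi genes higher where edgeR called 0, and leaving out 1 library gave 0 to 1 for the first and second of these. Alternatives for these lists were added after seeing the data.

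The mean log2 CPM difference of 0.33 ran from 0.17 to 0.45 with 1 library left out and was 0.06 without GFP 1 and GFP 2. The sign turned in 15 values of 6 genes, none past the threshold. With 1 library left out, dnmt1 ran from -0.11 to 0.12, mcm3 from -0.50 to 0.16, mcm4 from -0.49 to 0.081, mcm6 from -0.0020 to 0.45, TIMELESS from -0.35 to 0.074 and orc1 from -0.43 to 0.69. Without GFP 1 and GFP 2, dnmt1 was -0.069 and mcm6 -0.13.

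Libraries of the same replicate number did not pair: their deviations correlated at -0.15 to 0.10. With the replicate number as a block, 6 genes were higher and 0 lower over all genes, 0 replication genes passed, and orc1 was 0.36. The causes were not tested. The spread between melanomas, not depth, limits these comparisons.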
